A study of Drosophila melanogaster with 2 samples.

Results

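Binding of tagged disco-r, a zinc-finger transcription factor, was examined at the genes that encode the translation initiation factors (eIF) and elongation factors (eEF) of Drosophila melanogaster. The members were all protein-coding genes of the Ensembl BDGP6 annotation whose symbol starts with eIF or eEF, chosen by name and without using any signal, and they number 52 of 13986 protein-coding genes. The samples formed 1 group: whole embryos, males and females pooled, collected 0 to 24 h after laying from a transgenic line that stably expresses a disco-r-eGFP fusion, with chromatin precipitated by an antibody against GFP in biological replicates 2 and 3. A further label names disco, the paralog of disco-r, as the fused gene, while the other labels name disco-r. The embryos came from 1 transgenic line and span all of embryogenesis and all cell types, with no untagged or input library analysed here. There was no contrast between conditions, so the data describe where the precipitated signal lay and how alike the replicates were, and no p-values are given.

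Translation starts when eIF2 brings the initiator tRNA to the small ribosomal subunit, to which eIF3 also binds. The factors eIF4E, eIF4G and eIF4A recruit that subunit to the capped 5′ end of an mRNA. eIF2B recharges eIF2 with GTP, eIF5 triggers GTP hydrolysis at the start codon, and eIF5B joins the large subunit. During elongation eEF1alpha delivers aminoacyl-tRNAs, the eEF1beta, delta and gamma subunits recharge it, and eEF2 moves the ribosome along the mRNA. Every dividing embryonic cell uses this machinery, and the ribosomal protein genes that work with it are among the most highly transcribed genes of the fly.

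The lists deposited for the dm6 build held 30000 candidate regions for each replicate, 29347 pooled candidates, and 2334 peaks that passed the irreproducible discovery rate filter (IDR, which keeps regions that replicates rank alike). Each region carries a summit and the authors' own signal value, which is positive, has no stated scale and was used only to rank or describe regions within 1 list. Signal in the IDR list ranged from 72.5 to 1206 with a median of 105, and the IDR peaks were the 2334 strongest pooled candidates. A gene was counted at its promoter when a summit lay within 500 bp of one of its own annotated transcription start sites (TSSs), and at its locus when a summit lay in the gene body or within 2 kb of it. Neighbouring genes can share a summit under either rule. A gene's promoter signal in each list is that of the list's own strongest candidate by the promoter rule, so the regions can differ between lists.

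The sequences below show where the IDR summits of 6 members fell and which core promoter words lay there. They leave out other members with an IDR promoter summit, eIF6 with the strongest among them, for which no sequence is shown. The choice depended in part on the words. eIF3a was added for its DRE, and eEF2 was kept, shown across its start, because a word lay there. eIF2A, which also had a DRE near its summit, was left out because no word lay at its start. The sequences therefore do not show how often the words occur. Each reads 5′ to 3′ on the gene's own strand, taken from RefSeq's Release 6 genome (build dm6). Capitals mark the DNA replication-related element (DRE, TATCGATA, the site of the factor DREF) or a TCT initiator word (TCTTTC here), the pyrimidine-rich start known from ribosomal protein and translation factor genes; the words are matches of letters and not shown to be bound. The summit is base 61 of the 121-base stretches and base 39 of the 99-base eIF3a stretch. The DRE centre lay 5 bp from the summit at eEF1gamma (chr3R:29220080-29220200, plus strand), 6 bp at eIF3a (chr3R:4433876-4433974, minus strand) and 46 bp at eIF1 (chr3L:3222943-3223063, plus strand). For eEF2 (chr2L:21682101-21682130, minus strand), 30 bases across the start nearest to the summit are shown, and the C of the TCT triplet lies 4 bases downstream of the annotated start. The stretches at eIF3h (chr2L:5052462-5052582, minus strand) and eIF4EHP (chr3R:24109031-24109151, minus strand) hold no DRE. Neither spans an annotated start of its gene, so a TCT initiator could not be found there. For eIF3h only the stronger of its IDR promoter summits is shown.
eEF1gamma: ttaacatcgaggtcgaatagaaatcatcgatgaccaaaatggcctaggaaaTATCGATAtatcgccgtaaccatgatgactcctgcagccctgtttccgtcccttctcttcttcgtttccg
eIF3a: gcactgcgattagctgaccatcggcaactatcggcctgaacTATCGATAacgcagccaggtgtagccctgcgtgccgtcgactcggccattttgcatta
eIF1: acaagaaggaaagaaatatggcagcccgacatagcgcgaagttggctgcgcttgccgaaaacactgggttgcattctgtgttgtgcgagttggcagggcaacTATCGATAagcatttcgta
eEF2: tcgctgcagcgcctcgcTCTTTCctgtcga
eIF3h: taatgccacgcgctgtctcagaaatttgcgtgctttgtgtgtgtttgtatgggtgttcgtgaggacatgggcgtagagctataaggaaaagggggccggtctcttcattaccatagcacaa
eIF4EHP: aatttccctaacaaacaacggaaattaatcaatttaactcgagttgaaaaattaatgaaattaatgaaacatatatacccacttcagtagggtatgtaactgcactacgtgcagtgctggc

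Of the 52 translation factor genes, 12 had an IDR summit at the promoter (23.1%), against 1602 of 13986 protein-coding genes (11.5%). The 12 were eIF6, eEF1gamma, eIF1, eEF2, eEF5, eEF1alpha1, eIF3c, eIF3h, eIF4EHP, eIF2A, eIF3a and eIF5B. At the locus the count was 18 of 52 (34.6%), against 22.1% of all protein-coding genes. A candidate of any strength in the pooled list stood at the promoter of 37 members (71.2%), against 50.2% of all genes. The members were no longer than genes in general, with a median locus of 1955 bp against 2162 bp, and they had 1.48 annotated TSSs each on average, against 1.40 for all genes. More than 1 TSS was annotated for 8 of the 12 members with an IDR promoter summit and for 12 of the other 40, and whether the extra starts account for any of the difference in counts was not tested.

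**Figure D1:**
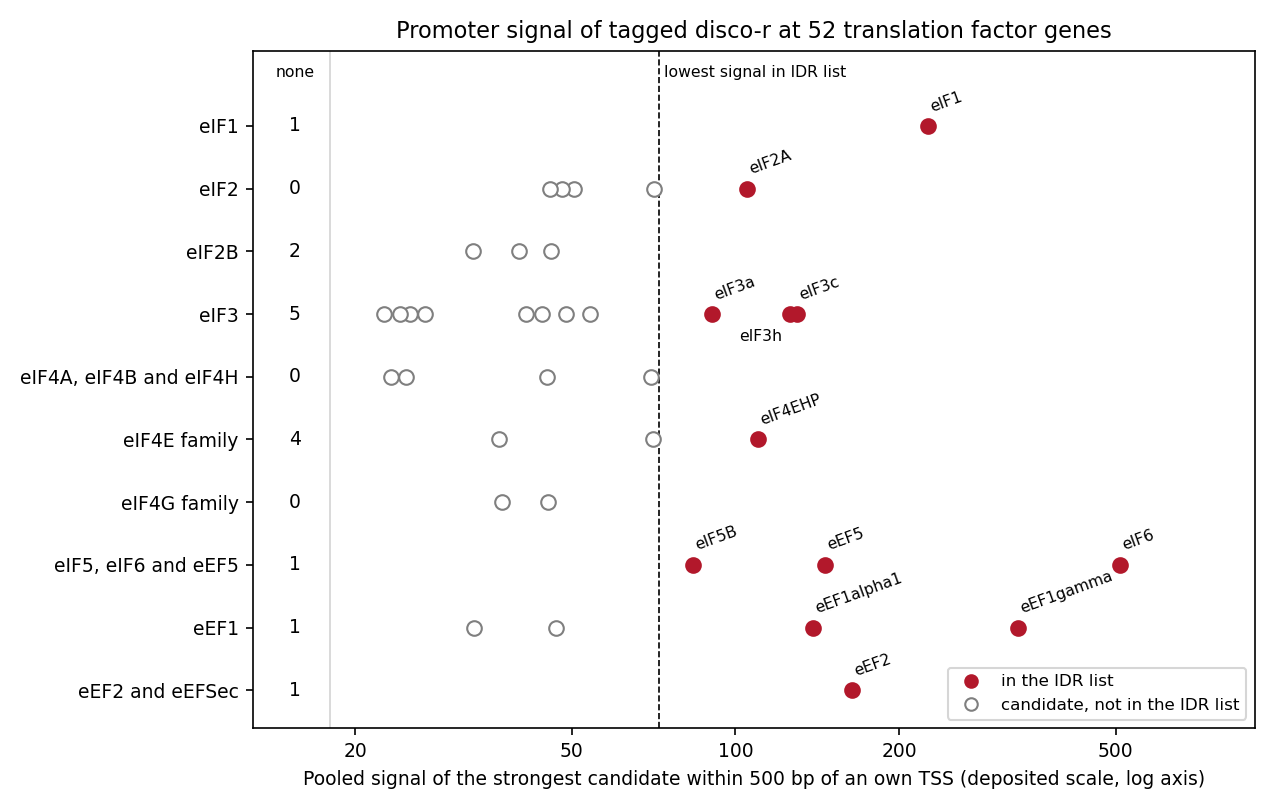
Pooled signal (log axis, deposited scale) of the strongest candidate within 500 bp of an own TSS, 1 point per gene, by factor group; the numbers at the left count members with no pooled candidate there. Filled points are the 12 genes in the IDR list, which starts at the dashed line at 72.5, and eIF6 and eEF1gamma lie farthest to the right at 509 and 330.

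eIF6, which keeps large ribosomal subunits from joining too early and is needed to make them, carried the strongest promoter signal of the family (2R, 23849246 to 23850301, minus strand). Its pooled signal was 509 at rank 30 of the pooled list, 225 in replicate 2 (rank 43) and 289 in replicate 3 (rank 25). The summit lay 113 bp upstream of its TSS, within 500 bp of the start of the antisense RNA gene asRNA:CR45928 and inside the gene ytr, so these data do not assign the peak to eIF6 alone. Both replicates placed it among their 50 strongest regions.

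Elongation factors made up 4 of the 12 genes, from 8 eEF members, where 11.5% of all protein-coding genes had an IDR promoter summit. eEF1gamma, the structural subunit of the eEF1 exchange complex (3R, 29220172 to 29222109), had a pooled signal of 330 at rank 91, with 151 in replicate 2 and 182 in replicate 3, and its summit lay 32 bp upstream of the start. eEF2, the translocase (2L, 21677913 to 21682164), had a pooled signal of 164 at rank 461, with 81.9 in replicate 2 and 82.6 in replicate 3, and a summit 6 bp from a start. eEF5, the fly counterpart of the hypusine-carrying factor that relieves ribosomes stalled at difficult peptide bonds, had 146 in the pooled list, 70.6 in replicate 2 and 79.9 in replicate 3, with the summit 24 bp inside the gene.
eEF1alpha1, the more widely expressed of the genes for the tRNA-delivering factor, had 139 in the pooled list, 69.9 in replicate 2 and 71.7 in replicate 3. Its summit lay 27 bp from an internal start, and eEF1alpha1 left the count when only the canonical TSS of each gene was used. All 4 stood in the strongest 2334 regions of each replicate. The remaining elongation factors were low or unlisted: eEF1alpha2 had a pooled promoter signal of 46.8 and eEF1beta 33.1, and neither eEF1delta nor eEFSec, the selenocysteine factor, had a candidate at the promoter in any list.

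Initiation factors made up the other 8, from 44 eIF members, beside the same 11.5% of all genes. The difference between elongation and initiation factors was not tested. eIF1, which keeps the scanning subunit open until a start codon is found (3L, 3223341 to 3224650), was counted through a summit 338 bp upstream of its start with a pooled signal of 226 (rank 218), 105 in replicate 2 and 114 in replicate 3. That summit lay 43 bp from the TSS of RpL28, a ribosomal protein gene, and eIF1 left the count when each summit was given only to the gene with the nearest TSS.

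The eIF3 complex, the largest of the initiation factors, had IDR promoter summits at 3 of its 16 genes and pooled candidates at 11. Of all genes, 11.5% and 50.2% had these. eIF3c, another core subunit of the complex, had a pooled signal of 130, with 73.0 in replicate 2 and 61.8 in replicate 3, and a summit 21 bp inside the gene. eIF3h, a further subunit, had 2 IDR summits, with pooled signals of 126 and 107. They lay 258 bp and 21 bp downstream of an internal start. The stronger had 65.8 in replicate 2 and 57.1 in replicate 3, and the gene senju starts within 500 bp of both.
eIF3a, a core scaffold subunit, had 90.4 in the pooled list, 30.7 in replicate 2 (rank 4153) and 45.7 in replicate 3 (rank 1492). Its summit lay 41 bp upstream of the eIF3a start and 29 bp from that of the gene CG1074, so eIF3a also left the count under the nearest-TSS rule. The other 8 eIF3 candidates were below the IDR list, from eIF3d1 at 54.0 down to eIF3f1 at 22.6.

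The members that handle the initiator tRNA and the cap contributed 1 gene each. eIF2A, which can bring initiator tRNA independently of eIF2, had a pooled signal of 105, with 43.2 in replicate 2 and 57.6 in replicate 3, 29 bp upstream of a start. All 5 genes of the eIF2 group had a pooled promoter candidate, but those of the eIF2 trimer proper, eIF2alpha, eIF2beta and eIF2gamma, had signals of 45.7, 48.0 and 50.6, below the IDR list. Of the 5 eIF2B genes, 0 had an IDR summit at the promoter and 3 had a pooled candidate, against 11.5% and 50.2% of all genes.
eIF4EHP, a cap-binding protein that blocks translation of caudal mRNA in the early embryo together with Bicoid, had 110 in the pooled list, 56.0 in replicate 2 and 57.6 in replicate 3, at 131 bp upstream of its start and within 500 bp of that of CG18428. eIF5B, the subunit-joining GTPase (3L, 3428658 to 3460977), had the lowest signal of the 12, at 83.4 in the pooled list, 37.7 in replicate 2 (rank 2690) and 50.2 in replicate 3 (rank 1245).

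The canonical cap-binding complex stayed below the list. eIF4E1, the main cap-binding protein, had a pooled signal of 70.6, with 33.2 in replicate 2 and 33.5 in replicate 3, and eIF4A, its RNA helicase partner, had 70.0, with 47.1 in replicate 2 and 42.6 in replicate 3. Both lie just outside the lowest IDR signal of 72.5, and eIF4A ranked 1639 in replicate 2 and 1704 in replicate 3, inside each replicate's strongest 2334. eIF2D, which can also deliver tRNA to ribosomes, had the highest promoter signal below the list at 70.8, but with 47.2 in replicate 2 (rank 1624) and 16.6 in replicate 3 (rank 13354). The scaffold genes eIF4G1 and eIF4G2 had 37.3 and 45.2, and the helicase cofactors eIF4H1, eIF4H2 and eIF4B had 45.0, 24.8 and 23.3. The 25 members with a candidate that did not pass had a median pooled signal of 44.1.

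The pooled list held no promoter candidate for 15 members, which were eEF1delta, eEFSec, eIF1A, eIF2Balpha, eIF2Bbeta, eIF3d2, eIF3e, eIF3f2, eIF3g2, eIF3i, eIF4E3, eIF4E4, eIF4E5, eIF4E7 and eIF5. The other 37 (71.2%) had one, against 50.2% of all genes, so members were unlisted less often than genes in general. Of the 15, 8 had none in the replicate lists either, a count for which no share over all genes is given. For eIF3d2, eIF4E3 and eIF4E4 the pooled list held no candidate anywhere in the locus. The other 49 of 52 loci held one, against 11296 of 13986 for all protein-coding genes. Where a factor has paired genes, the fold between them cannot be formed when a member is unlisted: eIF3d1, eIF3f1 and eIF3g1 had pooled signals of 54.0, 22.6 and 24.2, while eIF3d2, eIF3f2 and eIF3g2 had no pooled promoter candidate. The pairs eEF1alpha1 and eEF1alpha2 (139 and 46.8), eIF4G1 and eIF4G2, and eIF4H1 and eIF4H2 had a candidate at each gene. An unlisted promoter shows only that no region there was among the listed candidates.

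eIF6, eEF1gamma and eIF1, in that order, had the members' highest promoter signals in each replicate. Of the 12 genes with an IDR promoter summit, 10 were in the strongest 2334 regions of each replicate. The exceptions, eIF3a and eIF5B, were in that of replicate 3 only. The IDR list was made from these same replicates, so high ranks of the 12 in each are largely fixed by that choice. Counted in each replicate alone, the strongest 2334 regions reached 12 members in replicate 2 (23.1%, against 11.1% of all genes) and 13 in replicate 3 (25.0%, against 11.6%). Both lists reached 11 members (21.2%, against 8.22% of all genes), namely the 10 above and eIF4A, and eIF2D was reached in replicate 2 only. Over the 32 members with a promoter candidate in each replicate, Spearman's rho of the signal was 0.688 and Pearson's r of its log2 was 0.845, against 0.692 and 0.798 over 5155 genes. These correlations describe lists that share a control file and are given without a p. Below the IDR list single genes varied in how alike their ranks were: eEF1alpha2 ranked 18290 in replicate 2 and 2458 in replicate 3, while eIF3d1 ranked 5343 and 4965.

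**Figure D2:**
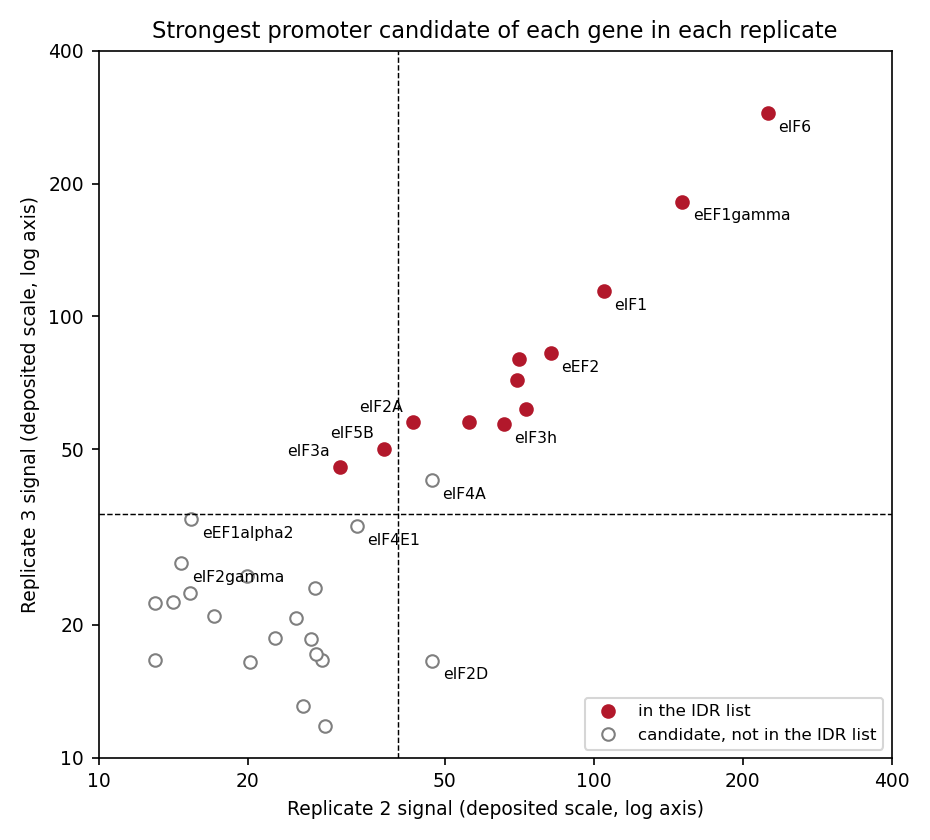
Signal of the strongest promoter candidate in replicate 2 (x axis) and replicate 3 (y axis), both log axes on the deposited scale, 1 point per gene for the 32 members listed in each; dashed lines mark the weakest of each replicate's strongest 2334 regions, 40.2 and 35.7. eIF6, eEF1gamma and eIF1 lead in each replicate, and eIF3a and eIF5B lie left of the replicate 2 line.

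Going down the pooled list, the members held a larger share than all genes at each of the depths given here. The strongest 500 candidates reached 4 members (7.69%, against 2.93% of all genes), and the strongest 1000 reached 8 (15.4%, against 5.31%). The strongest 5000 reached 18 members (34.6%, against 20.7%) and the strongest 10000 reached 29 (55.8%, against 31.4%). These lists are nested, so the shares are not independent of each other. The cytoplasmic ribosomal protein genes stood far above the members, with an IDR promoter summit at 61 of 92 genes (66.3%). The aminoacyl-tRNA synthetase genes, whose enzymes charge tRNAs, reached 6 of 33 (18.2%). The proteasome subunit genes, a set outside translation picked by symbol, reached 3 of 48 (6.25%), and how widely each is expressed was not examined. In the strongest 2334 regions of either replicate alone the proteasome count was 5 (10.4%), close to the share of all genes. No test of these differences was run.

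**Figure D3:**
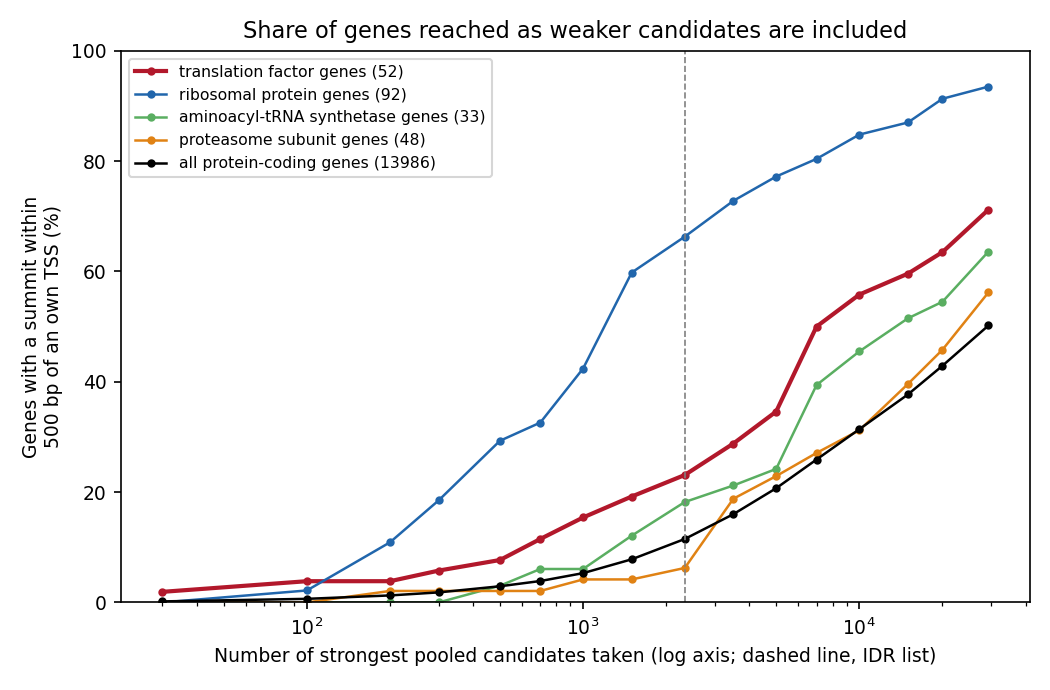
Percentage of genes with a summit within 500 bp of an own TSS (y axis) as more of the strongest pooled candidates are taken (x axis, log), for translation factor genes, ribosomal protein genes, aminoacyl-tRNA synthetase genes, proteasome subunit genes and all protein-coding genes. At the dashed line, 2334 candidates, the shares are 23.1%, 66.3%, 18.2%, 6.25% and 11.5%.

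Summits at translation factor promoters sat close to the start. Of the 12 genes, 7 had the summit within 50 bp of an own TSS (58.3%), against 18.5% of the 1602 genes with an IDR promoter summit and 75.4% of the 61 ribosomal protein genes with one. Within 100 bp the shares were 66.7% for the members, 37.6% for all genes and 95.1% for ribosomal protein genes. The members' summits ranged from 338 bp upstream (eIF1) to 258 bp downstream (eIF3h) of the nearest own start. The median was -30.5 bp, where negative means upstream. The summit was upstream of the nearest own start at 9 of 12 members, against 84.9% of all genes with an IDR promoter summit. At eEF2, eEF1alpha1, eIF2A and eIF5B that start was internal, and the summit lay inside the gene. A start of another protein-coding gene lay within 500 bp of the summit for 4 of the 12, eIF1, eIF3h, eIF4EHP and eIF3a, against 56.6% of the 1602 genes. The median promoter signal was 134 for the 12 members, 109 for all genes with an IDR promoter summit and 133 for the ribosomal protein genes.

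**Figure D4:**
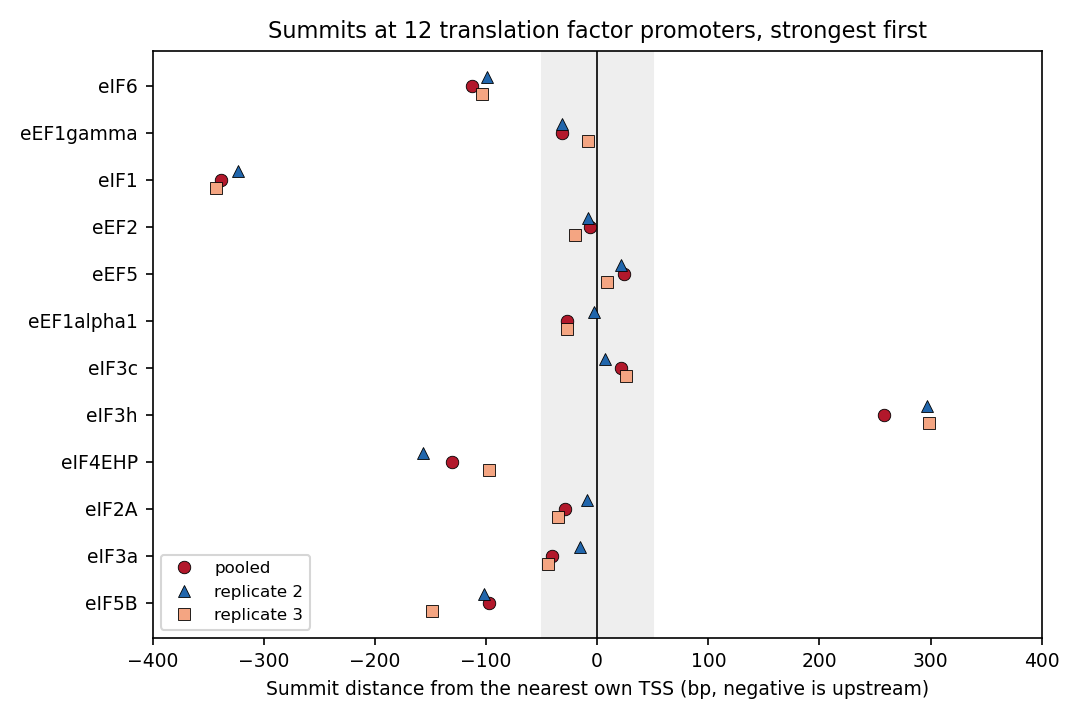
Distance of the summit from the nearest own TSS (x axis, bp, negative is upstream) in the pooled list, replicate 2 and replicate 3 for the 12 genes with an IDR promoter summit, strongest at the top; the grey band spans 50 bp on either side of the start. The pooled summits of 7 genes lie in the band, and in each replicate the eIF1 summit lies more than 300 bp upstream.

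At 6 of 52 loci (11.5%) there was an IDR summit but none at the promoter, a share near the 10.7% of all protein-coding genes. Each of these summits was nearer to the start of another gene. The strongest was at eIF2Bbeta, the regulatory subunit gene of eIF2B (X, 2704571 to 2706217), with a pooled signal of 884 at rank 4, 419 in replicate 2 (rank 5) and 461 in replicate 3 (rank 3). That summit lay 680 bp upstream of eIF2Bbeta and 39 bp from the start of Ugalt, which encodes a nucleotide-sugar transporter, and eIF2Bbeta itself had no pooled promoter candidate. The others were weaker: eIF2Bgamma had a summit with signal 107 at 28 bp from CG8187, eIF2beta 90.5 at 188 bp from ver, eIF4A 80.9 at 88 bp from ifc, eIF4E1 75.9 at 17 bp from CG4080, and eIF3j 72.9 at 89 bp from CG12134. Intronic summits far from any start were found at eIF5B and eIF4EHP. They lay 27361 bp (signal 77.7) and 9765 bp (signal 94.6) downstream of the gene's nearest own start. Members with a promoter summit also held summits inside neighbouring genes. These were at eEF1alpha1 (136 and 92.2, inside ERp60), eEF5 (93.3, inside RpL12) and eIF1 (112 and 79.8, inside Larp4B). In replicate 2 the strongest region at the ERp60 summits had 82.4, above the 69.9 at the eEF1alpha1 start. In all, 26 distinct IDR summits lay in members' loci and 13 of them within 500 bp of members' starts.

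By chromosome, the 12 genes were 4 of 13 members on 2R (12.1% of all genes there), 3 of 11 on 3L (11.0%), 3 of 15 on 3R (12.0%) and 2 of 5 on 2L (12.2%). On X, 0 of 7 members had an IDR promoter summit, where 9.93% of all X genes had one, and eIF4G1, the single member on chromosome 4, had none, against 6.25% of the genes there.

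Core promoter words were searched on both strands within 100 bp of each IDR promoter summit. The DRE lay in 4 of the 13 member windows (30.8%), against 7.16% of 1215 IDR promoter summits and 5.42% of 7957 pooled promoter candidates genome-wide. In ribosomal protein windows the share was 29.2% of 65. The 4 windows were at eEF1gamma, eIF3a, eIF1 and eIF2A, of which the eIF1 window belongs to the RpL28 start and is also among the ribosomal protein windows. The eIF3a summit was also nearer to a neighbour, at 29 bp from the start of CG1074 and 41 bp from that of eIF3a. Member candidates below the IDR list held the DRE in 5 of 25 windows, at eIF2alpha, eIF3f1, eIF4A, eIF4B and eIF4E6.
Motif 1 (core GGTCACAC), a promoter word of ubiquitously expressed fly genes, lay in 2 of 13 windows (15.4%), at eEF1alpha1 and eIF2A, against 3.95% of all IDR promoter summits. The E-box word CAGCTG lay in 0 of 13, against 12.8%, and the GAGA word GAGAG in 2 of 13 (15.4%), at eEF1alpha1 and eIF3c, against 23.9%. With 13 windows each share moves by several points with a single gene, and a match is not a bound site.

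**Figure D5:**
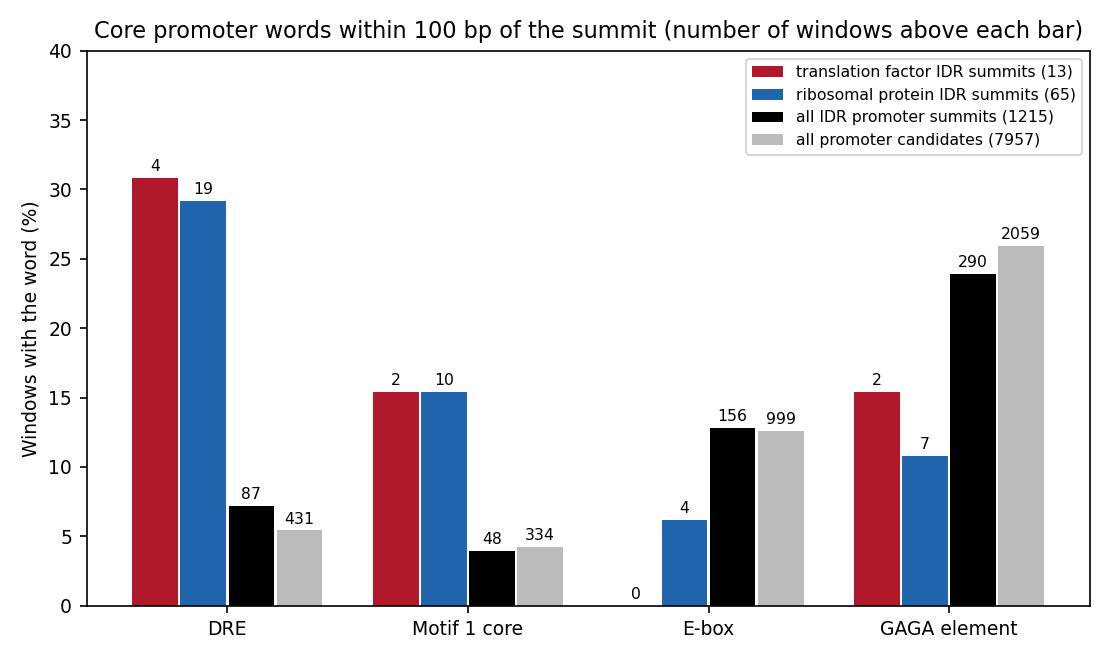
Percentage of windows of 100 bp on either side of a summit that hold each core promoter word (y axis), for IDR summits at translation factor promoters, at ribosomal protein promoters, at all promoters, and for all pooled promoter candidates; the number above each bar counts windows. The DRE bars of the translation factor and ribosomal protein summits, 30.8% and 29.2%, stand above the 7.16% of all IDR promoter summits.

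The start itself was also read. A TCT initiator word (a T or C, then CTTT, then a C or T, on the sense strand, at most 5 bp from an annotated TSS) was found at 6 of 52 members (11.5%), against 2.13% of 13968 genes and 59.8% of ribosomal protein genes. The members were eEF2, eEF5, eIF3f1, eIF3i, eIF3m and eIF4A. An IDR promoter summit stood at 2 of these 6, eEF2 and eEF5, and at 10 of the 46 members without the word (21.7%). Among ribosomal protein genes the shares were 65.5% of the 55 with the word and 67.6% of the 37 without it. Among all protein-coding genes they were 24.9% of the 297 with the word and 11.2% of those without it, and 14.6% of the 233 with the word that belong to none of the 4 gene groups compared here. A TATA word (TATAAA, 40 to 20 bp upstream) was found at 1 member, eIF4E7 (1.92%), against 8.46% of genes. From 250 bp upstream to 50 bp downstream of a start, the DRE was found at 28.8% of members, against 10.2% of genes. The share was 30.4% for ribosomal protein genes, 27.1% for proteasome subunit genes and 18.2% for aminoacyl-tRNA synthetase genes, so it was not particular to the members.

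Other genes of translation were read from a list of 31 symbols, of which 29 matched a single annotated gene. An IDR promoter summit stood at 4 of the 29, against the 11.5% of all genes given above, and a summit at the locus of 8 (27.6%, against 22.1% of all genes). larp, an RNA-binding regulator of mRNAs with terminal pyrimidine tracts, had the strongest at a promoter, with a pooled signal of 573 at rank 22, 264 in replicate 2 and 304 in replicate 3. Thor, the fly 4E-BP that blocks eIF4E, had 116, bel, a DEAD-box helicase, had 78.8, and pix, the ribosome-recycling ATPase, had 75.0. The termination factor gene eRF1 had 71.3, just below the IDR list, and of the 8 mitochondrial translation factor genes matched, 0 had an IDR summit at the promoter or the locus.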

How the data were processed

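ChIP-seq of disco-r-eGFP with an antibody against GFP was deposited as region lists for biological replicates 2 and 3 of whole embryos; chromatin was sonicated to 200 to 800 bp, per the labels. Per the deposited notes, each replicate's candidate list came from its dm6 alignments and 1 control file shared by the replicates, the pooled list from both, and the IDR list from the pooled and replicate lists. The signal of each region is the authors' deposited value, with no stated scale, and was compared only within a list. How reads were aligned, regions called and IDR thresholded was not given in the sources used here. Read numbers were not given either, so depth and precision are unknown. The dm3 lists were not used.

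Summits were taken as the region's start plus the deposited offset and matched to genes of Ensembl release 115 (BDGP6.54); all regions lay within the chromosomes of Release 6. Genes named are every member with an IDR summit, members in 1 replicate's strongest list only, the 5 strongest candidates below the IDR list and members with none. Other members are named as examples of their factor group or for a promoter word, chosen after their values were seen. The members and lists were chosen with earlier results of these data known. The functions were tested on simulated summits and words with known places. Counts are given beside the share of all protein-coding genes and no test was run, since genes are not replicates. Alternatives changed the promoter window, the flank, the IDR list, the replicate, the overlap rule, the gene universe, the TSS and the word window. Python 3.11.15, numpy 2.4.6 and scipy 1.17.1 were used.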

Additional observations from a re-analysis of the deposited data

How the results depend on the processing

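The count of members with an IDR summit at the promoter was 12 and stayed between 9 and 13 under 9 alternatives. The share of all genes moved with the rule. It was lowest for IDR peaks above their median signal, with 9 members (17.3%, against 6.28% of all genes). Promoters of 200 bp gave 11 (21.2%, against 8.05%) and of 1000 bp 13 (25.0%, against 13.5%). The gene with the nearest TSS only gave 10 (19.2%, against 8.45%). Among genes with a pooled promoter candidate the shares were closer, at 12 of 37 members (32.4%) against 22.8%. Taking the strongest 2334 regions of 1 replicate, without the other, gave 12 to 13 members at the promoter and 17 to 18 at the locus. The locus count of 18 depended on the rule: it was 8 with no flank (15.4%, against 7.58% of all genes), 11 for IDR peaks above their median signal (21.2%, against 12.6%) and 10 for the gene with the nearest TSS only (19.2%, against 11.9%). With no flank, the locus counts were 27 for ribosomal protein genes, 2 for synthetase genes and 2 for proteasome genes. IDR peaks above the median left 3 synthetase genes at the promoter and 6 at the locus, and the nearest-TSS rule left 4 synthetase and 2 proteasome genes at the locus. A flank of 5 kb gave 16 proteasome genes (33.3%, against 31.9% of all genes). Leaving out either replicate gave 5 proteasome genes at the promoter, against 3, and the lowest and highest counts of the other groups were 60 to 63 (promoter) and 63 to 65 (locus) for ribosomal protein genes, 5 to 6 and 10 to 11 for synthetase genes, and 11 to 12 at the locus for proteasome genes. The GAGA word lay in 0% of member windows of 50 bp on either side. The cause of each shift was not tested, apart from fewer peaks or less sequence being read by construction. Replicate agreement was 0.712 (Spearman's rho) for summits within 200 bp of a start. No paired analysis was possible because there was 1 group. The unknown depth, the lack of an input or untagged library among the data read here and the 2 replicates limit what an unlisted promoter shows.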
